A study of Mus musculus with 4 samples.

Results

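Open chromatin was examined at 10 genes of the TEAD and YAP pathway, Tead1, Tead2, Tead3, Tead4, Yap1, Wwtr1, Vgll2, Vgll3, Vgll4 and Lats2, among 21755 protein-coding genes of GENCODE M21 on mm10. The genes were chosen by name, and every ATAC-Seq peak at their transcript starts, in their exons and introns and in the 50 kb on either side was taken, which gave 156 peaks from non-endothelial nuclei and 133 from endothelial nuclei. The study sorted nuclei from whole hearts of male NuTRAP/Cdh5-Cre mice on a C57BL/6 background, 8 to 12 weeks old, by flow cytometry into GFP+ and GFP- nuclei, with 2 libraries of each. Both populations came from the same genotype, in which Cre driven by Cdh5, the gene of the endothelial adhesion protein VE-cadherin, switches on GFP, so that GFP marks descent from a cell that used this driver and the GFP- nuclei are a mixture of all other heart cells. Tagmentation used 100 to 50000 nuclei and, by the labels, 2.5 µL of the Tn5 transposase per 50000 nuclei. The authors called peaks once for each population, on its pair of replicates jointly, so that differences taken from these lists have no replicate check, and no test between populations was made.

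TEAD proteins are transcription factors that bind the MCAT element of muscle and growth genes but need a partner to switch transcription on. YAP (Yap1) and TAZ (Wwtr1) are such partners, and the kinases of the Hippo pathway, with LATS1 and LATS2 at its end, phosphorylate them and keep them out of the nucleus, while the vestigial-like proteins (VGLL) bind TEADs in competition with YAP and TAZ or as cofactors of their own. In heart and vessels the pathway is known for limiting cardiomyocyte proliferation, for vessel sprouting and for the activation of fibroblasts.

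Each peak carries an area, a value that the authors' caller summed over its length and that is not a count of reads. Peaks were ranked by area within their list as a percentile, from 0 for the smallest to 100 for the largest. A start peak overlaps an annotated transcript start +/- 250 bp, and a peak is shared when it overlaps a peak of the other list by at least 1 bp. At starts, a difference of more than 20 points of rank, or a peak in only one list, was counted as a call, and in introns and flanks only the former was. The GFP- list held 78912 peaks and the GFP+ list 65008. Start peaks of 8 endothelial markers (Cdh5, Pecam1, Tie1, Tek, Kdr, Emcn, Egfl7, Esam) were found for 6 genes in the GFP- list and for 8 in the GFP+ list, with median ranks over all 8 of 60.5 and 86.6 (0 where a list had no start peak), and 7 of the 8 ranked higher in GFP+, Tek being the exception. Of 7 fibroblast markers 6 had a start peak in GFP- and 2 in GFP+, and of 6 pericyte and smooth muscle markers 6 and 3. All 6 cardiomyocyte markers had a start peak in both lists, at median ranks of 99.6 and 91.4. Of 5 macrophage markers, Cd68 alone had a start peak, in both lists. In such sorted but mixed nuclei, a smaller share of a cell type and a weaker signal per cell cannot be told apart.

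The promoters are shown first because the core of the MCAT element, CATTCC or GGAATG on the other strand, stands in most of them. RefSeq windows from 250 bases before to 50 after a start (GRCm38.p6) were at hand for 8 of the 10 genes, with Tead1 and Tead4 unmatched, and 6 of these 8 genes had the word in at least one window, against 16.6% of 27025 genes. By window, 8 of 12 held it, against 14.7% of 32851 promoters, although windows of Wwtr1 and of Tead3 overlap each other. Tead2 and Vgll2 had no match. None of the 12 windows held the AP-1 word TGANTCA, which 7.81% of all promoters held. A match to a word is a description of the letters and not a binding site. The first matching window of each gene by coordinate is printed 5′ to 3′ on the gene's strand, with every TEAD word in capitals.
Tead3 promoter, chr17:28350551-28350850, - strand: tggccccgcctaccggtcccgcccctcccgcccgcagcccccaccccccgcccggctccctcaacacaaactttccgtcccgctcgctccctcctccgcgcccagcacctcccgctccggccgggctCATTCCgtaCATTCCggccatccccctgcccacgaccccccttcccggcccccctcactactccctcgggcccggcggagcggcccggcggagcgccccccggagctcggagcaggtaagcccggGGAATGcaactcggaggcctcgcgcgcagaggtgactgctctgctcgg
Yap1 promoter, chr9:8004547-8004846, - strand: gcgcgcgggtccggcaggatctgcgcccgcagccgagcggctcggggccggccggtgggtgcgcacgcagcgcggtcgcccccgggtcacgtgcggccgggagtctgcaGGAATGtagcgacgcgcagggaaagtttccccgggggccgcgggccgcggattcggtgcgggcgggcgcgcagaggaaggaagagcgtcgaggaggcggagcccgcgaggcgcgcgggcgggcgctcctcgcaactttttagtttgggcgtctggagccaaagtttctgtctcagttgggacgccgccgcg
Wwtr1 promoter, chr3:57575827-57576126, - strand: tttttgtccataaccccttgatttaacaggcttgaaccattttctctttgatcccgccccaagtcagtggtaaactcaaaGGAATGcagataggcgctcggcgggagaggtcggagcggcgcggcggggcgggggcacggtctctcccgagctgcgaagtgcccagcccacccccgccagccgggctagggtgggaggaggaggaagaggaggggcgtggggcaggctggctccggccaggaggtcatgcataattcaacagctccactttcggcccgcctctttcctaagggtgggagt
Vgll3 promoter, chr16:65814939-65815238, + strand: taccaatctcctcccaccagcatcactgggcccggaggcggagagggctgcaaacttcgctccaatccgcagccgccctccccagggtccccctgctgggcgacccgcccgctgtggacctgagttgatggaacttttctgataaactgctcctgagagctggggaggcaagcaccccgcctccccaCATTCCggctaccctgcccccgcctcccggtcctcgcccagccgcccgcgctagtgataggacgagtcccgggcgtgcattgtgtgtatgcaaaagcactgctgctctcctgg
Vgll4 promoter, chr6:114969154-114969453, - strand: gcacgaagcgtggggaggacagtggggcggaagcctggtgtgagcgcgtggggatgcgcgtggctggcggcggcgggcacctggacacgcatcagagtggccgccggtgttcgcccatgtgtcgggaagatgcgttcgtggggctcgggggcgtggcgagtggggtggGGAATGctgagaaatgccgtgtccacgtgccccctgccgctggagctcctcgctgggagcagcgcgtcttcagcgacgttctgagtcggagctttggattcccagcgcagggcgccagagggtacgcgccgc
Lats2 promoter, chr14:57746074-57746373, - strand: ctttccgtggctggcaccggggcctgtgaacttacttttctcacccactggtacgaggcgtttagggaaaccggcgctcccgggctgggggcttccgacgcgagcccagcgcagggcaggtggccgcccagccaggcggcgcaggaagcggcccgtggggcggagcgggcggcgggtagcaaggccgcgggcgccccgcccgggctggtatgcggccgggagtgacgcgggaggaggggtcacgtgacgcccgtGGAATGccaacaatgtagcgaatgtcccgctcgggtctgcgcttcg
Tead3 had 3 words in this window, the first 123 bases before the start, and Yap1, Wwtr1, Vgll3 and Vgll4 had 1 each, at 141, 170, 63 and 82 bases before it. The word of Lats2 began 4 bases after the start.

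Peaks found in only one population are shown next, as the 200 bases around the summit on mm10, in the direction of the gene, with TEAD words and AP-1 words in capitals. They are the Vgll3 peaks inside the gene that only GFP- nuclei had, the highest-ranked upstream GFP- only peak of Tead1 and the highest-ranked GFP+ only peak of Wwtr1. These genes were picked by hand, so the windows do not stand for all one-list peaks. The GFP- only peaks of Tead3 ranked 82.0 and of Vgll3 29.0 kb upstream, not printed, held neither word. Of all peaks, 13.6% in GFP- and 12.7% in GFP+ held the TEAD word, and 9.99% and 7.71% the AP-1 word.
Vgll3 intron window, higher-ranked, chr16:65818901-65819100, + strand: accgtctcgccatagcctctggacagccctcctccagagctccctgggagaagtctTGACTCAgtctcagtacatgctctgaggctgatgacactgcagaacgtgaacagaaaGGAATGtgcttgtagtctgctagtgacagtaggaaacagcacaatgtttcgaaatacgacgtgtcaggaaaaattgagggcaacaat
Vgll3 intron window, lower-ranked, chr16:65823742-65823941, + strand: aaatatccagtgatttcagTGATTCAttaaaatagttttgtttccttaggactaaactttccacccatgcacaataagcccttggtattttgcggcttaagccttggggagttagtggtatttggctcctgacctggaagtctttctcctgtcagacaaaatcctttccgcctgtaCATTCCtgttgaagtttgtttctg
Vgll3 internal start window, chr16:65828297-65828496, + strand: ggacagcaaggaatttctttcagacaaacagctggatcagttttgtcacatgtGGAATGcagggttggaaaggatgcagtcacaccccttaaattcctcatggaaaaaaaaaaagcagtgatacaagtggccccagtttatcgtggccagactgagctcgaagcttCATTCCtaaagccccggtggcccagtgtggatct
Tead1 upstream window, chr7:112663421-112663620, + strand: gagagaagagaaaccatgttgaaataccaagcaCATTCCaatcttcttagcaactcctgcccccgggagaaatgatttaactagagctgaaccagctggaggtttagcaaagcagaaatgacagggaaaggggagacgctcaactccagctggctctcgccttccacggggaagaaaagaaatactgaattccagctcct
Wwtr1 upstream window, chr3:57612588-57612787, - strand: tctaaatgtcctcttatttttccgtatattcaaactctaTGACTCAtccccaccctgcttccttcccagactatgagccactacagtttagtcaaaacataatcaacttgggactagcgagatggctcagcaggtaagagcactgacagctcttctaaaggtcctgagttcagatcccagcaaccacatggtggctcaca
Each Vgll3 intron window held 1 TEAD word and 1 AP-1 word, the internal start window 2 TEAD words and no AP-1 word, and the Tead1 window 1 TEAD word. In the AP-1 word N is any base. The match was TGACTCA in the higher-ranked Vgll3 intron window and TGATTCA in the lower-ranked one. The Wwtr1 window held no TEAD word and 1 AP-1 word, and 88 of its 200 bases are marked as repeats in the reference, against 19 to 59 bases in the other 4.

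At their starts most of the genes were open in both populations. A start peak was found for 9 of 10 in GFP- and for 10 of 10 in GFP+ nuclei, against 61.8% and 59.8% of all protein-coding genes. The median start rank was 95.9 in GFP- and 93.0 in GFP+ over the genes with a start peak, and 90.5 and 89.3 over all genes with one. For each gene the highest-ranked start peak was compared between the lists. The median difference, GFP+ minus GFP-, was -0.34 points over the 10 genes, with 7 lower and 3 higher, and -0.81 points over 13643 genes with a start peak in either list, 9740 of them lower. Under the alternatives the median of the 10 genes ranged from -3.15 points by area per bp to 0.095 points with the GFP- list cut to the length of the GFP+ list, and that of all genes from -1.63 to 0.42. Of the 10 genes, 1 was called lower in GFP+ (Vgll3), where 8.72% of all genes were, of which 4.71% of all genes had a start peak only in GFP-. 1 was called higher (Vgll2, in GFP+ only), where 2.53% of all genes were, of which 1.46% of all genes had a start peak only in GFP+.

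**Figure D1:**
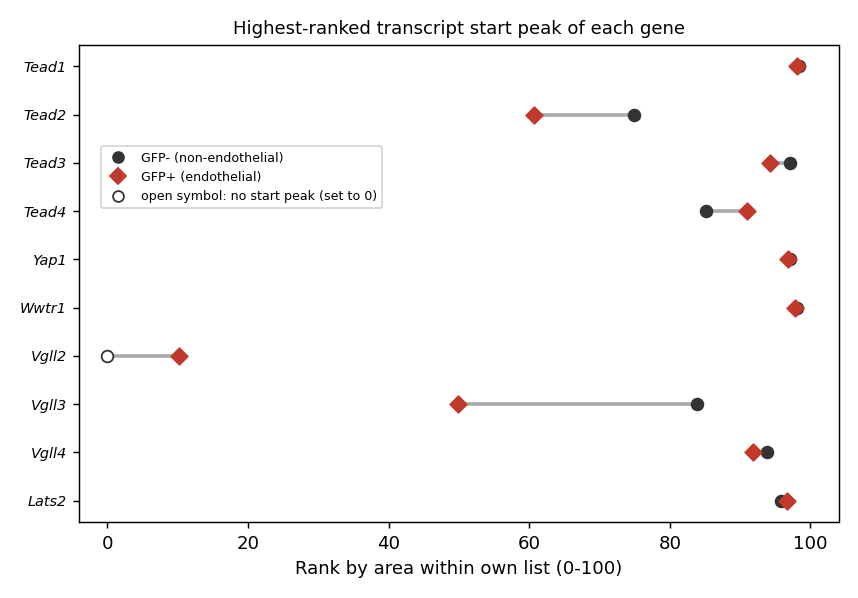
Percentile rank by area (x axis, 0 to 100) of the highest-ranked start peak of each gene in GFP- (dark circles) and GFP+ nuclei (red diamonds), 1 list per population, with no peak drawn as an open symbol at 0. The symbols of Tead1, Yap1, Wwtr1 and Lats2 nearly coincide above 95, while Vgll3 moves from 83.9 to 49.9 and Tead2 from 74.9 to 60.6.

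Among the TEAD factors, Tead1 (chr7:112679318-112906807, + strand), the family member best known from cardiac muscle, had a start peak of 1984 bp ranked 98.4 in GFP- and one of 1804 bp ranked 98.1 in GFP+. The window around its summit held 2 TEAD words in either list. Internal transcript starts of Tead1 had further peaks. One ranked 63.2 in GFP- and 64.4 in GFP+. Another was 1803 bp long and ranked 89.0 in GFP-, where the overlapping GFP+ peak had 815 bp and ranked 77.2, and did not reach the start itself.

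Tead2 (chr7:45215753-45233644, + strand), known for its expression in early embryos, had a start peak that was 1273 bp long and ranked 74.9 in GFP-, and was 631 bp and ranked 60.6 in GFP+. By area per bp the difference turned from -14.3 to 8.15 points, and by the summit −log10 p it was -5.21 points. With peaks of an area of at least 400 alone it passed the limit, at -20.6 points. It was -8.89 points with the GFP- list cut to the length of the GFP+ list. Tead3 (chr17:28331671-28350817, - strand) ranked 97.1 in GFP- and 94.2 in GFP+ at its start, and differed by -15.2 points by area per bp. Tead4 (chr6:128224288-128300823, - strand), a regulator of early embryo and skeletal muscle genes, was the TEAD gene that ranked higher in GFP+, at 91.0 against 85.1, with peaks of almost equal length, 1194 and 1190 bp. An internal start of Tead4 had a peak in GFP- nuclei only, ranked 36.6. No difference among the TEAD starts reached 20 points, apart from this internal peak.

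The coactivator genes were also close at their starts. Yap1 (chr9:7931999-8004596, - strand) ranked 97.1 in GFP- and 96.8 in GFP+, and Wwtr1 (chr3:57455649-57575910, - strand) 98.1 and 97.8, a difference of -0.31 points that was -5.15 by area per bp. Lats2 (chr14:57689662-57758388, - strand), the kinase that phosphorylates both proteins, ranked 95.9 and 96.6, and one GFP+ peak of 2208 bp spanned a pair of GFP- peaks of 507 and 1585 bp. By area per bp Lats2 was lower in GFP+, by -11.8 points. The Lats2 start with the peak lies within the gene record, whose own 5′ end had no peak in either list, and it is also a start of the overlapping gene Gm49361.

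Among the cofactor genes, Vgll4 (chr6:114860628-114969994, - strand), which encodes a competitor of YAP for TEADs, had 3 start peaks in both lists, ranked 93.8, 92.1 and 90.1 in GFP- and 91.9, 85.2 and 84.0 in GFP+. By area per bp its difference was -18.3 points. Vgll3 (chr16:65815257-65866368, + strand), a cofactor known from myofibroblasts and muscle, ranked 83.9 in GFP- and 49.9 in GFP+ at its first start, with peaks of 1044 and 1001 bp. Its area was 2767 against 694.4, and the −log10 p-value at the summit was 7.24 against 4.17. The start of a processed transcript inside Vgll3 had a peak in GFP- only, at chr16:65828119-65828564, ranked 70.8. Vgll2 (chr10:52022502-52028471, + strand), a cofactor of skeletal muscle, had no start peak in GFP- and one of 341 bp ranked 10.1 in GFP+, with an area of 258.3, close to the smallest area in that list, 200.01.

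The difference of Vgll3 held in direction under every ranking and list length tried, from -80.4 points by area per bp to -30.5 points with the GFP- list cut to the length of the GFP+ list. The Vgll2 peak was absent when only peaks with an area of at least 400 were kept. Beside Vgll3, the start peaks of the fibroblast genes Tcf21, Dpt, Col1a2 and Dcn and of the mural cell genes Pdgfrb, Rgs5 and Acta2 were found in GFP- only, and those of Pdgfra, Col1a1, Cspg4, Myh11 and Kcnj8 in both lists. Their part in the result was not tested.

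Over all classes of peak, 115 of the 156 GFP- peaks (73.7%, Wilson 95% interval 66.3% to 79.995%) overlapped a GFP+ peak, against 71.8% of GFP- peaks at all protein-coding genes. In the other direction 118 of 133 GFP+ peaks (88.7%, 82.2% to 93.0%) overlapped a GFP- peak, against 87.3%. These intervals cover counting error only. In introns 59 of 79 GFP- peaks (74.7%, 64.1% to 83.0%) and 62 of 70 GFP+ peaks (88.6%, 79.0% to 94.1%) were shared, against 65.4% and 83.6% of all intron peaks. In the flanks 40 of 56 (71.4%, 58.5% to 81.6%) and 42 of 46 (91.3%, 79.7% to 96.6%) were shared, against 67.2% and 85.6%. The background flank class leaves out peaks at any protein-coding start. Without such peaks the genes' own flank shares were 32 of 47 (68.1%, 53.8% to 79.6%) and 34 of 38 (89.5%, 75.9% to 95.8%). At these settings each background share lay within the interval of the genes' own share, and shares under the alternatives are given in the last section. A one-list peak was usually small, with a median rank of 33.4 among the 41 GFP- only peaks and 12.5 among the 15 GFP+ only peaks.

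**Figure D2:**
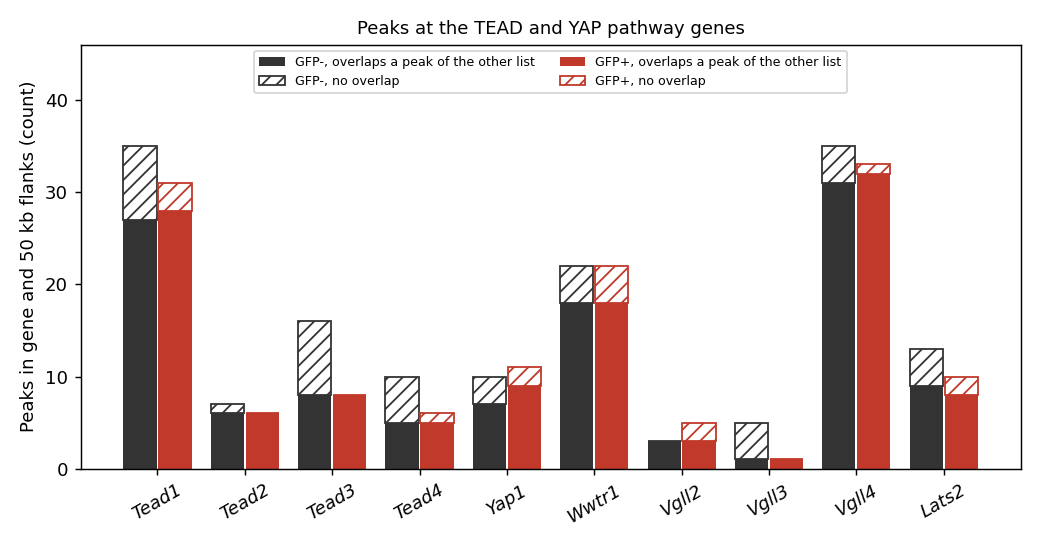
Number of peaks in each gene and its 50 kb flanks (y axis) in GFP- (dark) and GFP+ (red), with peaks that overlap the other list filled and those without overlap hatched. Tead3, with 16 and 8 peaks, and Vgll3, with 5 and 1, have the most uneven counts, while Wwtr1 has 22 in both lists.

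The genes differed in how many peaks they had. Per 100 kb, Vgll4 had 16.7 peaks in GFP- and 15.8 in GFP+, more than 97.2% and 97.0% of protein-coding genes. Tead3 had 13.4 in GFP- and 6.71 in GFP+, or 16 and 8 peaks, and 8 of its GFP- peaks had no GFP+ counterpart. Tead1 had 35 and 31 peaks, of which 8 and 3 were in one list only. Vgll3 had 5 and 1, a density above 38.8% and 17.3% of all genes, and 4 of its 5 GFP- peaks were GFP- only. Wwtr1 had 22 in either list with 4 of each found in that list only. Yap1 and Vgll2 were the genes with more peaks in GFP+, 11 against 10 and 5 against 3. At Yap1, however, the GFP- peaks at 24.9 and 20.8 kb each overlapped 2 GFP+ peaks. The peaks of Yap1 covered 7.54 kb in GFP- and 5.81 kb in GFP+.

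Overlapping peaks of both lists were merged into regions, and a region without a peak in a list was given rank 0 there. Over 137 intron and flank regions of the 10 genes that touch no other protein-coding start, the median difference was -5.56 points, and it was -5.35 points over 59192 such regions of all genes. Of the 137, 36 dropped by more than 20 points in GFP+, where 25.5% of all regions did, and 15 gained more than 20 points, where 8.39% did. Both medians changed sign with the GFP- list cut to the length of the GFP+ list, to 2.26 and 2.49 points, so the common shift depends on the length of the lists.

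**Figure D3:**
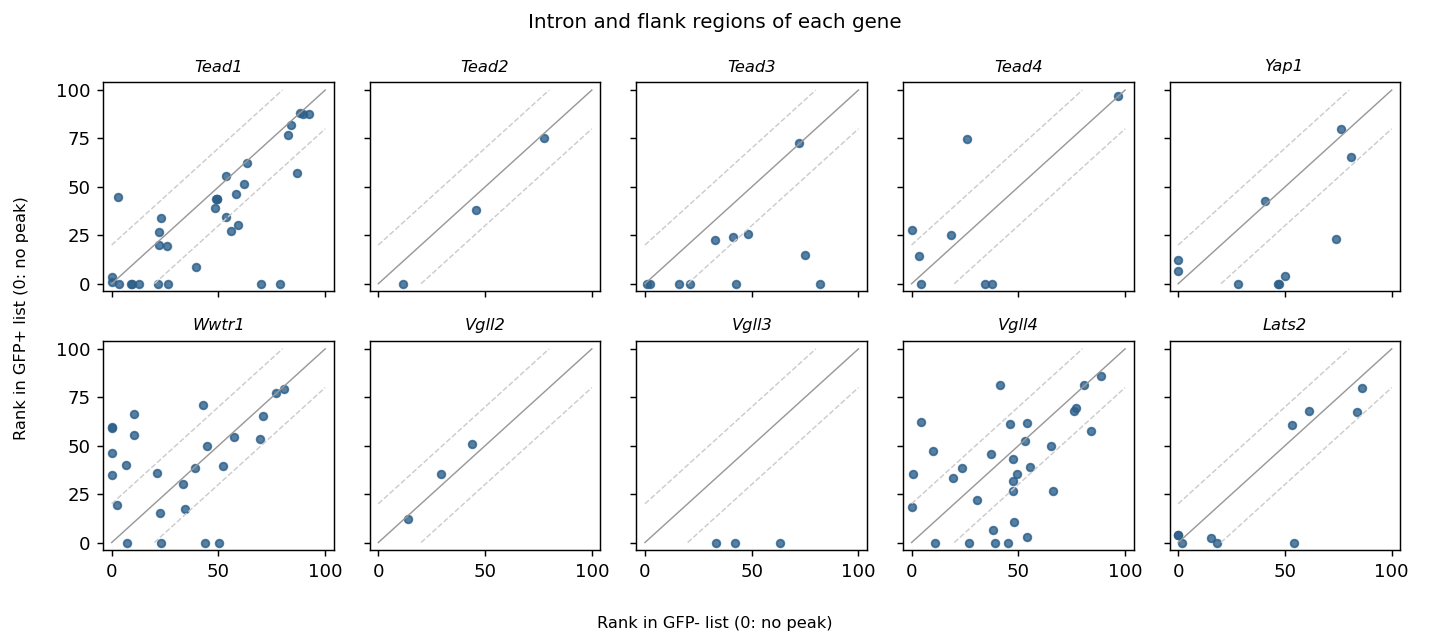
Rank of each intron and flank region in the GFP- list (x axis) and in the GFP+ list (y axis), 1 panel per gene, with no peak drawn at 0, equal ranks on the solid line and 20 points of difference on the dashed lines. The regions of Vgll3 lie on the x axis, and 8 of the 25 regions of Wwtr1 lie above the upper dashed line. None lies above it for Tead3 (11 regions), Yap1 (10), Lats2 (10), Tead2, Vgll2 or Vgll3 (3 each). Over all genes 8.39% of such regions ranked higher in GFP+ by more than 20 points.

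Wwtr1, the TAZ gene, had the most regions higher in GFP+ nuclei, 8 of 25 against 8.39% of all regions, with 3 lower against 25.5%. The highest-ranked of those in GFP+ only lay 36.8 kb upstream, at chr3:57612380-57612916, and ranked 59.5; its summit window with the AP-1 word is printed above. A GFP+ only intron peak 34.5 kb after the start ranked 59.0, another at 71.0 kb ranked 46.5, and a GFP+ only peak 26.9 kb upstream, ranked 34.8, held the ETS word CAGGAAGT. Among regions open in both, an intron region at 59.6 kb ranked 10.5 in GFP- and 66.3 in GFP+, one at 31.6 kb 10.4 and 55.7, one at 45.5 kb 6.57 and 40.0, and an upstream region at 28.9 kb 43.0 and 70.8. These 8 regions lay on both sides of the start, between others that were not called. In the other direction, GFP- only intron peaks at 63.5, 65.4 and 79.4 kb ranked 50.4, 43.8 and 23.3. The AP-1 word stood in those at 63.5 and 65.4 kb but not in that at 79.4 kb. It also stood in the GFP+ only peak at 71.0 kb and, in both lists, in the region at 31.6 kb. The highest-ranked region open in both lay 144.0 kb downstream of the start and ranked 80.9 and 79.4.

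At Yap1 none of 10 regions gained more than 20 points in GFP+ and 5 lost more, where 8.39% and 25.5% of all regions did. By direction alone, 6 were lower in GFP+ and 4 higher. GFP- only intron peaks at 60.3 and 42.6 kb ranked 47.2 and 46.9, the second with a TEAD word, and shared intron regions at 24.9 and 44.0 kb ranked 73.7 and 49.8 in GFP- but 23.0 and 4.06 in GFP+. The region at 24.9 kb held the AP-1 word in both lists. The GFP+ only peaks of Yap1 ranked 12.2 and 6.56. Its highest-ranked region in GFP-, at 20.8 kb, ranked 80.8 and 65.7, and that in GFP+, downstream at 90.0 kb, ranked 76.4 and 80.1.

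**Figure D4:**
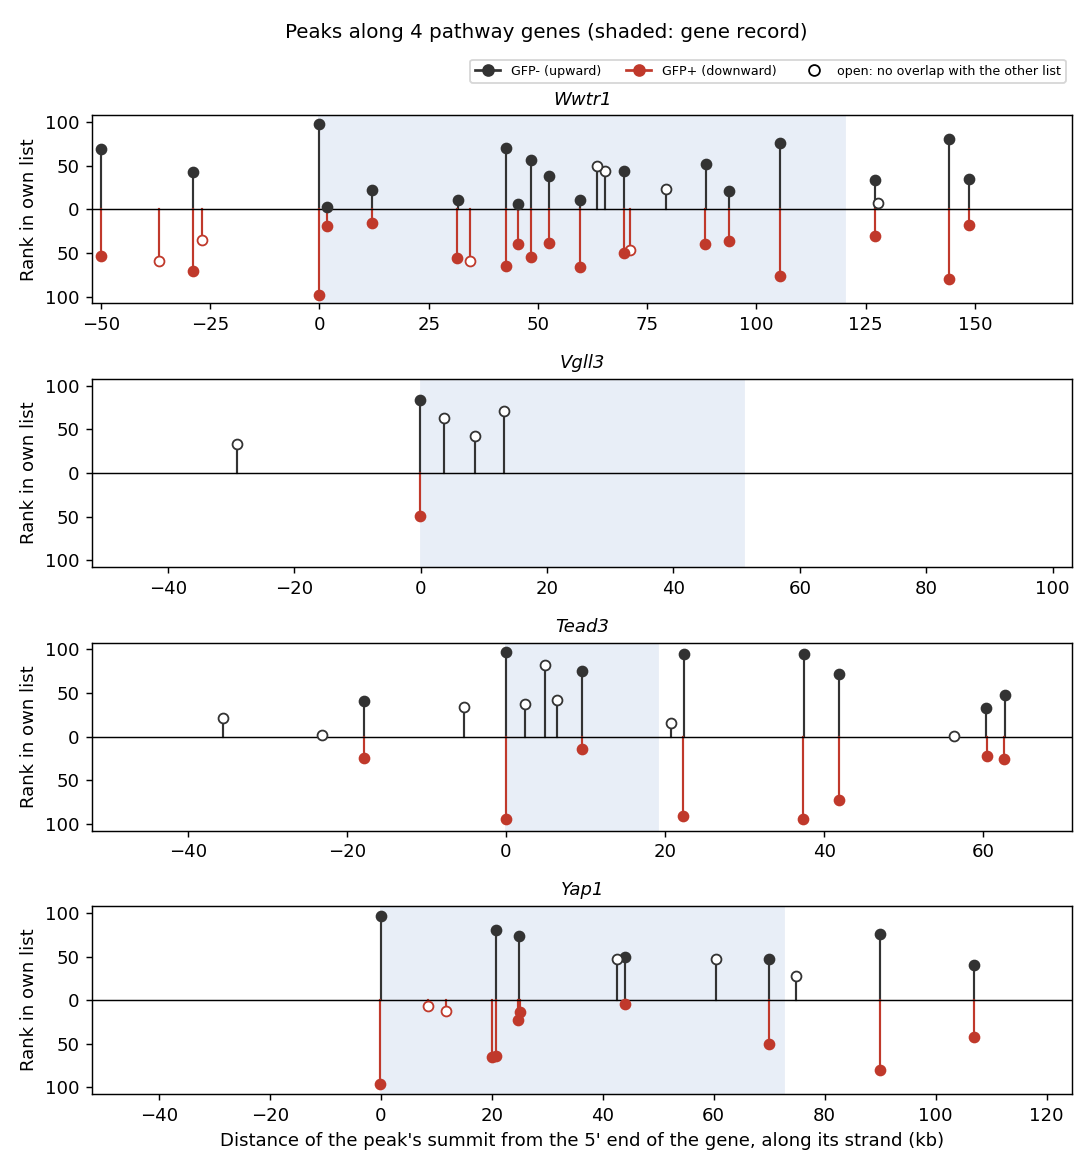
Peaks of Wwtr1, Vgll3, Tead3 and Yap1 by the distance of the summit from the 5′ end of the gene in kb (x axis, along the gene's strand), with rank in the GFP- list drawn upward and in the GFP+ list downward, open symbols for peaks with no overlap and the gene record shaded. GFP+ only peaks of Wwtr1 stand upstream and within the gene, whereas in Vgll3 every peak but that at the start and in Tead3 a cluster after the start are GFP- only.

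Vgll3 had 3 intron and flank regions and all were GFP- only, namely the intron peaks chr16:65818839-65819207 and chr16:65823708-65824101, 3.7 and 8.6 kb after the start and ranked 63.1 and 42.4, and a peak 29.0 kb upstream ranked 33.4. With the internal start, 4 of its 5 GFP- peaks held the TEAD word, the peak at the first start included. Both intron peaks also held the AP-1 word. The one GFP+ peak of Vgll3, at the first start, held the TEAD word too.

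The highest-ranked one-sided regions of Tead3 lay close to its start. A GFP- only intron peak of 1326 bp, 4.9 kb after the start at chr17:28345084-28346409, ranked 82.0, the highest rank of any one-list peak at the 10 genes. It was flanked by a GFP- only intron peak at 6.4 kb ranked 42.5 and a GFP- only exon peak at 2.4 kb ranked 37.2. This exon peak held the ETS word. The next intron region, at 9.6 kb, ranked 74.7 in GFP- and 14.6 in GFP+. A GFP- only peak 5.3 kb upstream, at the start of Tulp1, ranked 33.6 and held 2 TEAD words. The remaining GFP- only regions of Tead3, at 20.7 and 56.2 kb after the 5′ end and 23.2 and 35.5 kb upstream, ranked 16.2, 0.928, 2.38 and 20.9. Of 11 regions that touch no other start, 5 lost more than 20 points in GFP+, against 25.5% of all regions. The neighbouring shared peaks at the starts of Fance and Rpl10a ranked 95.2 and 94.7 in GFP- and 94.4 and 91.5 in GFP+, and a shared flank region near Fance ranked 72.2 and 72.4.

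Tead1, the longest of the genes at 227.5 kb, had 33 regions with 8 lower and 1 higher, against 25.5% and 8.39% of all regions. Upstream of its start the GFP- list had peaks at 34.5, 23.0, 18.8 and 15.8 kb, ranked 70.0, 89.5, 82.4 and 78.7. The middle pair was shared, at 87.7 and 76.6 in GFP+, while the outer pair was GFP- only. A TEAD word was found at 3 of the 4 summits, at 23.0, 18.8 and 15.8 kb. The highest-ranked intron region in GFP-, 193.6 kb after the start, ranked 92.5 and 87.8, that in GFP+, at 84.4 kb, ranked 88.4 and 88.2, and a region at 147.0 kb with a TEAD word ranked 86.9 in GFP- and 57.0 in GFP+. The region that was higher in GFP+, at 144.5 kb, ranked 2.93 and 44.6 and held the AP-1 word in both lists. The highest-ranked GFP+ only peak of Tead1, in an exon, ranked 12.5.

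Tead4 had 2 regions higher and 2 lower of 8, against 8.39% and 25.5% of all regions. The intron region 4.1 kb after its start, chr6:128296219-128297348, ranked 26.1 with a peak of 629 bp in GFP- and 74.8 with 1130 bp in GFP+, and a GFP+ only intron peak at 14.9 kb ranked 27.9. A GFP- only peak 46.2 kb upstream ranked 37.8. The largest region in its flanks, ranked 96.5 and 96.7, lay nearest to the start of the neighbouring gene Tspan9. Tead2 had 3 regions that touch no other start, none called, the highest at 77.7 and 75.4, and its single GFP- only peak ranked 11.5.

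Vgll4 had 31 regions, 9 lower and 4 higher, against 25.5% and 8.39% of all regions. An exon peak ranked 85.1 in GFP- and 54.1 in GFP+ and held the AP-1 word. Adjacent intron regions 103.3 and 103.7 kb after the 5′ end ranked 4.51 and 0.442 in GFP- but 62.4 and 35.5 in GFP+, and flank regions at 151.3 and 129.7 kb ranked 41.4 and 10.2 in GFP- but 81.6 and 47.2 in GFP+. These 4 regions lie toward the 3′ end of Vgll4, and those in the flank are nearer to the start of Atg7. They lie among regions that were lower in GFP+ or not called. Flank regions at 157.5 and 111.8 kb ranked 53.9 and 66.4 in GFP- but 2.69 and 26.4 in GFP+. An intron region at 76.0 kb ranked 84.2 and 57.7. GFP- only peaks of Vgll4 ranked up to 45.0, its GFP+ only peak ranked 18.6 and its highest shared intron region 88.8 and 86.1. Lats2 had 10 regions, of which 1 was lower by more than 20 points, a GFP- only intron peak ranked 54.4. Its highest-ranked intron region was shared and ranked 86.1 and 79.8, its GFP+ only peaks ranked 4.03 and 3.76, and a shared upstream peak at the start of Sap18 ranked 91.9 and 90.1. Vgll2 had 3 flank regions, all shared and uncalled, and a GFP+ only exon peak ranked 33.4.

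Across all peaks of the 10 genes the TEAD word was about as frequent as elsewhere. In the 200 bp at the summit it was found in 22 of 156 GFP- peaks (14.1%, 9.50% to 20.4%) and 19 of 133 GFP+ peaks (14.3%, 9.34% to 21.2%), where 13.6% of all GFP- and 12.7% of all GFP+ peaks had it. At starts it was found in 5 of 16 GFP- peaks (31.2%, 14.2% to 55.6%) and 5 of 13 GFP+ peaks (38.5%, 17.7% to 64.5%), where 8.01% and 7.79% of all start peaks had it. These start peaks came from Tead1, Tead4, Vgll3 and Lats2 in GFP- and from Tead1, Yap1, Vgll3, Vgll4 and Lats2 in GFP+. The sets differ in part because summits moved, as at Tead4, whose GFP- summit 279 bp after the 5′ end had 3 TEAD words around it and whose GFP+ summit at 243 bp had none. Shared peaks of the lists cover the same DNA, so the pairs of shares are not independent.

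The AP-1 word stood in 17 GFP- peaks (10.9%) and 13 GFP+ peaks (9.77%), against 9.99% and 7.71% of all peaks. In introns it stood in 14 of 79 GFP- peaks (17.7%, 10.9% to 27.6%), against 11.1% of all intron peaks of that list, and in the flanks in 2 of 56 (3.57%, 0.985% to 12.1%), against 11.4% of all flank peaks. The 56 include 9 peaks at another gene's start, a class that the background flank peaks leave out. Wwtr1 had the AP-1 word in 5 of 22 peaks in either list. The ETS word stood in 3 peaks of each list, against 2.89% and 3.18% of all peaks. In GFP- these were the GFP- only exon peak of Tead3, a GFP- only intron peak of Tead1 and a shared intron peak of Vgll4. In GFP+ they were the GFP+ only exon peak of Tead1, the GFP+ only Wwtr1 peak 26.9 kb upstream and a shared intron peak of Vgll4.

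The other genes of the pathway were also mostly open in both populations at their starts. Of 30 further kinases, scaffolds and regulators, 29 had a start peak in GFP- and 28 in GFP+, and the median difference over the 29 was -0.50 points. The upstream kinase genes Stk3 and Stk4 ranked 95.4 and 94.4 in GFP- and 94.97 and 94.6 in GFP+, their partner Sav1 92.0 and 91.6, and the second LATS gene, Lats1, 93.0 and 94.1. 1 gene of the 30 was called, Wwc1, which encodes the scaffold KIBRA and had a start peak in GFP- only, ranked 31.6. The atypical cadherin genes Fat4 and Dchs1 ranked 94.9 and 54.8 in GFP- and 84.0 and 48.0 in GFP+, which were not calls. Vgll1 had no start peak in either list.

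Several target genes of YAP and TAZ known from other tissues differed at their starts. All 21 had a start peak in GFP- and 18 in GFP+, with 18 lower and 3 higher in GFP+ and a median difference of -2.28 points, where 9740 of 13643 genes were lower. Of these, 6 (28.6%) lost and 1 (4.76%) gained more than 20 points, against 8.72% and 2.53% of all genes called. Start peaks of Fjx1, Foxf2 and Myof were found in GFP- only, ranked 84.0, 79.0 and 63.5. Axl, a receptor tyrosine kinase gene, ranked 86.8 in GFP- and 26.8 in GFP+, Rbms3 67.5 and 41.0, and Arhgef17 98.3 and 77.3. Igfbp3, which encodes an insulin-like growth factor binding protein, was higher in GFP+, at 64.5 against 35.0. The most widely used targets were not called, with Ccn1 at 99.9 and 98.6, Ccn2 at 98.3 and 96.5, Ankrd1 at 84.3 and 81.4 and Amotl2 at 99.0 and 98.9.

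**Figure D5:**
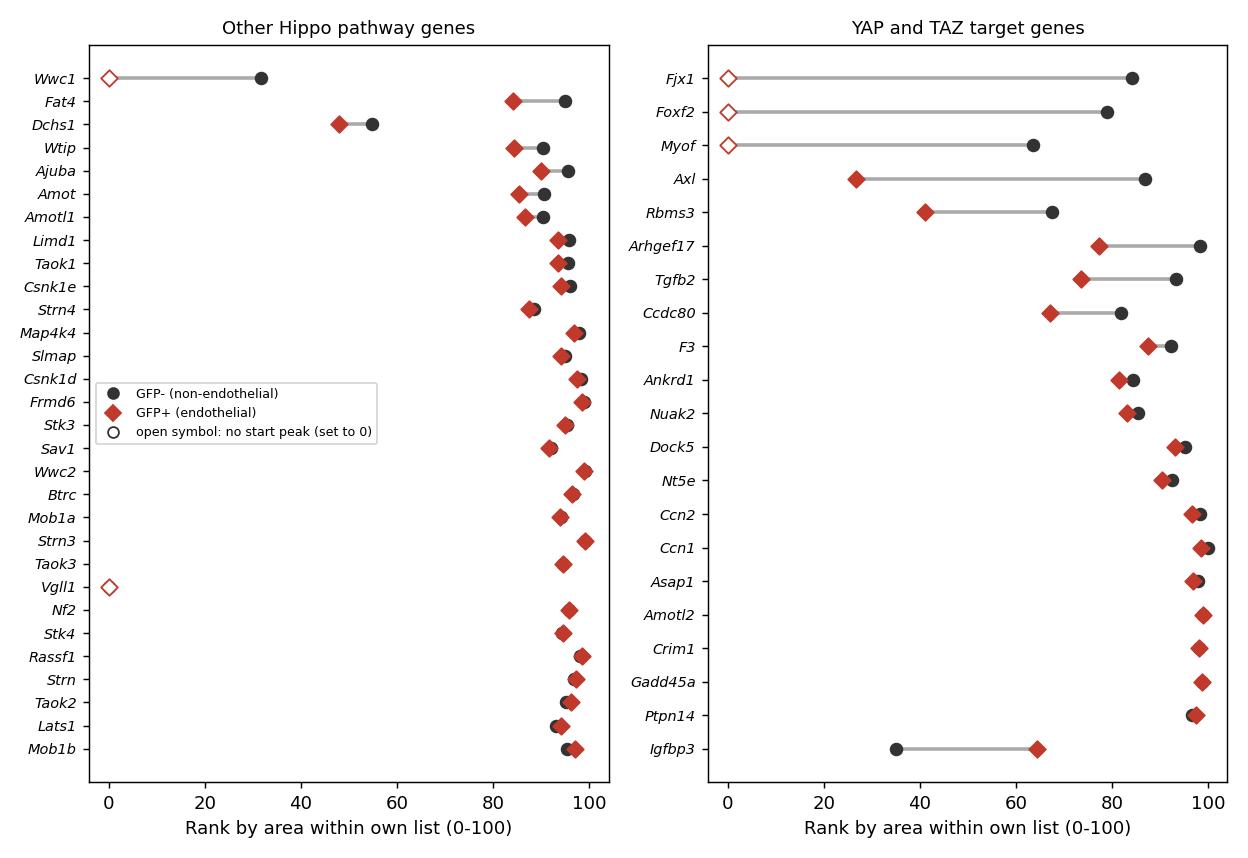
Rank by area of the highest-ranked start peak (x axis, 0 to 100) of 30 other pathway genes (left) and 21 target genes (right) in GFP- (circles) and GFP+ nuclei (diamonds), ordered by the difference, with open symbols at 0 for genes without a start peak. In the left panel Wwc1 alone is called, whereas 7 of the 21 targets are, 6 of them toward lower rank in GFP+.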

How the data were processed

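The ATAC-Seq data were 2 replicate libraries each of GFP- and GFP+ heart nuclei, grouped by the sample labels. Reads were trimmed, mapped by the authors with Bowtie2 to mm10, cleared of duplicates (Picard) and downsampled, and Genrich then called peaks on each pair of replicates jointly. The submitters' processing notes list CASAVA 1.4 and Bowtie2 2.3.5.1. The deposited area is a signal summed over a peak's length, the deposited −log10 p-value belongs to the summit, and the deposited score is area per bp limited to 1000, which 83.9% of GFP- and 82.0% of GFP+ peaks reached, so it was not used for ranking. Downsampling evens depth before calling, but the longer GFP- list gives more peaks without a partner. Library totals and values per replicate were not analysed here, so the depth behind a single peak is unknown.

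Peaks were ranked by area within their list, assigned to a start (+/- 250 bp of any GENCODE M21 transcript start), exon, intron or 50 kb flank by the summit, and compared by overlap of at least 1 bp. Words were searched on both strands in 200 bp of GRCm38.p6 at the summit. Chromosome ends were checked for 20 chromosomes, with 0 peaks beyond them. Python 3.11.15, numpy 2.4.6, pandas 2.3.3, scipy 1.17.1, pysam 0.24.0 and matplotlib 3.10.9 were used, and the steps were tested on simulated data. The named items are all start peaks, the highest-ranked one-list peaks and shared region of each gene, and the called pathway and target genes; other regions, most of them with differences of more than 20 points, were chosen after their values were seen. The members, lists and settings were chosen with earlier results of these data known. Alternatives changed the start and flank definitions, the ranking, the threshold on peaks, the overlap and the word.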

Additional observations from a re-analysis of the deposited data

How the results depend on the processing

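The lists hold 1 peak set per population, so leaving out a replicate could not be run. No paired analysis was possible because the peaks of both replicates were called together and no result comes from a test. Of the values for the gene group as a whole, 38 stayed within the interval or margin set around the reported value, which is wide for 10 genes, and 10 left it. The former include the median start difference of the 10 genes, which was -3.15 points by area per bp, -0.99 by the summit −log10 p, -0.55 with an area of at least 400 and 0.095 with the GFP- list cut to the length of the GFP+ list, so its sign is not settled. With an overlap of at least 50% of both peaks, the shared share fell to 60.3% of GFP- and 70.7% of GFP+ peaks (62.5% and 74.1% at all genes). With peaks of an area of at least 400 it was 66.1% and 81.7% (71.7% and 88.9% at all genes). With the GFP- list cut to the length of the GFP+ list it was 79.7% of GFP+ peaks (80.1% at all genes), and the median region difference turned to 2.26 points (2.49 at all genes). The TEAD word was found in 26.3% of GFP- and 23.3% of GFP+ peaks in 400 bp (23.2% and 22.2% of all peaks), and the 8-letter word ACATTCCA in 2.56% and 1.50% (1.54% and 1.35%). Of single genes, Tead2 turned from -14.3 to 8.15 points and Vgll3 moved from -34.0 to -80.4 points by area per bp, and by the same ranking Vgll4 moved from -1.94 to -18.3, Tead3 from -2.90 to -15.2, Tead4 from 5.95 to 16.9, Wwtr1 from -0.31 to -5.15 and Lats2 from 0.73 to -11.8, none past 20 points. The median start difference of all genes was between -1.63 and 0.42 points under the alternatives. What depth per library would add is not known, and peaks near the smallest area, such as that of Vgll2, are the least secure.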
